A study of Sus scrofa with 4 samples.

Results

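S-phase cells were taken from 2 single-cell RNA sequencing libraries of porcine pancreatic ductal organoids (PPDO), called here PPDO 1 and PPDO 2. Cells were scored in each library by the mean of ln(1 + UMIs per 10000) over 7 genes taken as markers of S phase. UMIs (unique molecular identifiers) are the captured molecules. The genes were DTL, UHRF1, MCM3, MCM4, MCM6, POLE and ZNF367, and their mean is called here the replication score. The highest 5% were kept, and cells that were also in the highest 6% by a score of 8 mitosis genes (CENPF, TOP2A, TPX2, HMMR, UBE2C, CCNB1, ASPM and CDC20) were left out. This gave 302 cells in PPDO 1 and 283 in PPDO 2, or 585 of 16222 organoid cells that passed the limits on features and mitochondrial UMIs, of 17924 organoid barcodes and of 32580 barcodes in the series. They were compared with 973 cells of the highest 6% by mitosis score (533 and 440), called here mitotic-score cells, and with the remaining 14664 organoid cells (8050 and 6614), called other cells.

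PPDO are three-dimensional epithelial cultures that were started from duct fragments of digested pig pancreas. The cells were kept in basement membrane extract with complete medium that supplies WNT3A, R-spondin 1, noggin, EGF and FGF10 among other factors, broken up with TrypLE and sorted as live cells. Each library is a separate PPDO line, and the donor pigs differed in age and the cultures in passage number. The labels tie neither to a library, so line, age and passage cannot be told apart. The series also holds 2 libraries of primary pig pancreas, the first of hand-picked ducts and the second a pool of DBA-positive ductal cells, insulin reporter cells and whole suspension. The animals were wild-type or carried an insulin promoter reporter (INS-eGFP), and all 4 libraries had no treatment in the labels.

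During S phase a cell copies its DNA once. Licensing factors load the MCM helicase on origins in G1, kinases of the entry into S phase then start it with CDC45 and the GINS complex, and polymerases, the PCNA clamp and histone chaperones follow the fork. Transcription of many of these genes is driven by E2F factors, which are released from RB proteins when cyclin-dependent kinases become active, and chiefly falls again before the cell divides.

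The libraries held 366263520 and 316018482 UMIs in PPDO, with a median of 35310 and 35127 UMIs per barcode, and 18 barcodes were shared between the kept cells of both, none of them among the S-phase cells. S-phase cells were deeper than other cells, with a median of 42889 UMIs in PPDO 1 and 42974 in PPDO 2, against 33423 and 33652.5. Mitotic-score cells had a median of 39307 and 43971.5 UMIs, below S-phase cells in PPDO 1 and above them in PPDO 2. The median share of mitochondrial UMIs was 0.479% and 0.407% in S-phase cells and 0.387% and 0.388% in other cells. A doublet score over 0.25 was found in 0 and 1 S-phase cells, against 1.58% and 1.24% of other cells. In cells of 30000 to 50000 UMIs only, the median change of the replication genes against other cells was 2.21 on the log2 scale, against 2.18 over all cells, while the median of WNT genes was 0.30 against 0.51.

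The score ran without a gap across the limit for membership, and whether S-phase cells form a separate class was not tested. The score was 0 in 54.6% of kept cells of PPDO 1 and in 48.6% of PPDO 2. The limit for membership fell at 0.259 and 0.361. The 10 members just inside it scored 0.259 to 0.272 in PPDO 1 and 0.361 to 0.376 in PPDO 2, and the 10 cells just outside scored 0.255 to 0.258 and 0.349 to 0.359. Within 0.05 of the limit lay 127 cells of PPDO 1, of which 38 were members, and 84 cells of PPDO 2, of which 36 were members. The members' median score was 0.50 and 0.585. The share of members was set by the rule. With 1 limit for both libraries (0.314), 4.38% of PPDO 1 and 5.77% of PPDO 2 would have scored at or above it, mitotic-score cells included. Of the highest 5% by the replication score, 142 cells of PPDO 1 (32.0%) and 84 of PPDO 2 (22.9%) also lay in the highest 6% by mitosis score. These were left out of the S-phase cells but stayed among the mitotic-score cells.

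**Figure D1:**
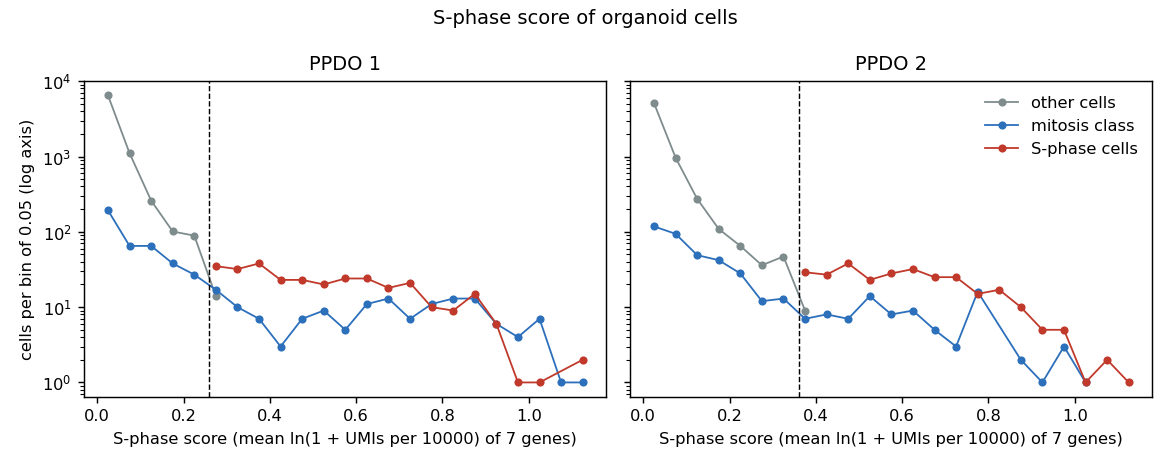
Number of kept cells per bin of 0.05 of the 7-gene replication score (mean ln(1 + UMIs per 10000), log axis of cells) in PPDO 1 and PPDO 2, for S-phase cells, mitotic-score cells (labelled mitosis class) and other cells. The score runs on without a gap across the dashed limits of 0.259 and 0.361, and a bin that holds a limit has both members and other cells.

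The 7 score genes chose the cells, so their values are a description without a test. Levels are given in CPM, UMIs per 1000000 UMIs of a class in a library. DTL, the substrate receptor of the CRL4 ubiquitin ligase that destroys CDT1 during replication, was at 128 CPM in PPDO 1 and 139 in PPDO 2 in S-phase cells and at 1.61 and 1.92 in other cells. UHRF1, which brings the maintenance methyltransferase to newly copied DNA, was at 67.6 and 79.6 CPM against 1.22 and 1.47. POLE, the catalytic subunit of the leading-strand polymerase, was at 37.8 and 51.5 CPM against 0.554 and 0.628. MCM6, a subunit of the replicative helicase, was at 148 and 159 CPM against 12.7 and 16.1. Over the 7 genes the sum was 605 and 676 CPM in S-phase cells, 302 and 225 in mitotic-score cells and 23.6 and 30.7 in other cells. When each gene was left out of the score in turn and read in the cells chosen by the other 6, the mean ratio over the other cells ranged from 10.1 for MCM6 and 12.7 for MCM4 to 61.4 for POLE and 61.8 for DTL. Those cells shared 92.1% to 97.7% of their number with the members, so these ratios too are a description.

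Genes outside the 15 score genes were compared as sums per class and library with edgeR, with the library as a term, and the false discovery rate (FDR) was adjusted over all genes tested. They did not enter the choice, but they were read in the same cells. With the library as a term, p-values rest only on how evenly a class difference repeated in these 2 libraries, with the spread partly shared over genes. They do not measure a spread over other lines. Of 16460 genes, 2970 (18%) were higher and 2526 (15.3%) lower in S-phase cells than in other cells at an FDR under 0.05. Against mitotic-score cells 1941 (11.8%) were higher and 1668 (10.1%) lower. Without the library term 1593 and 362 genes differed in the 2 comparisons. Where both libraries of a class are said below to lie apart from both of another, these are 2 values against 2. The share of all genes that separate in this way was not counted.

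Replication genes that the score did not use were read first. Of 53 such genes in 3 lists (origin licensing, helicase and fork, polymerases and lagging strand), 52 were tested, and 49 were higher, 2 lower and 1 did not pass, with a median log2 fold change of 2.18 against 0.01 over all genes tested. The median was 2.00 in PPDO 1 and 2.19 in PPDO 2 alone. These genes include partners of score genes, such as MCM2 beside MCM3. The lists were also chosen with earlier results of these data known. Their rise is therefore a description and not an independent check of the label. Per cell, after every cell was thinned to 10000 UMIs, S-phase cells held a median of 18 of these 52 genes in PPDO 1 and 20 in PPDO 2, with 80% of cells between 11 and 25 and between 13 and 26. In other cells the median was 8 in both libraries, with 5 to 11 and 5 to 12 genes. Mitotic-score cells had a median of 15 and 14, with 80% of cells between 8 and 26 and between 9 and 26.7. That class is mixed, since it holds the 142 and 84 cells that were high in both scores. Thinning left out 26 and 2 S-phase cells and 423 and 168 other cells that were too shallow.

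Origin licensing genes rose in 14 of 15 cases, with a median log2 fold change of 2.23. CDT1, the factor that loads the MCM helicase together with CDC6, was at 15.2 CPM in PPDO 1 and 16.7 in PPDO 2 in S-phase cells and at 0.572 and 0.771 in other cells, or 4.48 ± 0.22 (SE) higher on the log2 scale (edgeR FDR 2.85e-07). CDC6 was at 20.2 and 25.2 CPM against 1.58 and 1.1 (3.99 ± 0.19, edgeR FDR 1.72e-07). For each of these genes both libraries of S-phase cells lay far above both libraries of other cells. Within the origin recognition complex, the ring that marks origins, the members moved unequally. ORC1, its cell-cycle controlled subunit, was at 32.3 and 41.1 CPM against 1.98 and 2.53 (3.94 ± 0.14, edgeR FDR 2.29e-08), and ORC6 was 2.23 higher on the log2 scale. ORC2, ORC3 and ORC5 were higher by 0.40, 0.32 and 0.39, and ORC4 was lower, at 97.9 and 110.0 CPM against 141 and 129 (-0.47 ± 0.07, edgeR FDR 7.55e-04). The helicase subunits that the score did not use were all higher, MCM2 by 3.64, MCM5 by 3.93 and MCM7 by 3.0 on the log2 scale, as was MCM10, an activator of the helicase (3.85). GMNN, the inhibitor of CDT1 that blocks a second licensing, was at 39.0 and 55.0 CPM against 9.26 and 11.3 (2.09 ± 0.09, edgeR FDR 6.44e-08).

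Of 14 helicase and fork genes, 13 rose, with a median log2 fold change of 2.72. TIMELESS, of the fork protection complex, was at 35.2 CPM in PPDO 1 and 40.3 in PPDO 2 in S-phase cells and at 1.54 and 1.78 in other cells (4.42 ± 0.13, edgeR FDR 1.20e-08). GINS1, a subunit of the active helicase, was at 40.4 and 50.4 CPM against 2.18 and 2.52 (4.18 ± 0.13, edgeR FDR 1.20e-08), and CDC45, its partner, was higher by 3.26. Claspin (CLSPN), which links stalled forks to the checkpoint, was at 71.2 and 84.5 CPM against 8.51 and 8.46. The ranges of the libraries did not overlap for any of these genes. The exception in the list was TOP1, the topoisomerase that relaxes DNA in transcription as well as replication, at 211 and 219 CPM against 193 and 203 (0.03 ± 0.05, edgeR FDR 0.698).

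Among 23 polymerase and lagging strand genes 22 rose, with a median log2 fold change of 1.71. FEN1, the nuclease that trims Okazaki fragments, was at 15 and 15.9 CPM in S-phase cells of PPDO 1 and PPDO 2 and at 1.31 and 1.47 in other cells (3.39 ± 0.14, edgeR FDR 8.33e-08). POLA1, which starts each fragment, was at 97.7 and 118 CPM against 18.1 and 17.2 (2.52 ± 0.10, edgeR FDR 4.11e-08). PCNA, the sliding clamp, was at 143 and 163 CPM against 35 and 37.3 (1.99 ± 0.06, edgeR FDR 1.34e-08). At 10000 UMIs a PCNA UMI was found in 68.8% and 70.5% of S-phase cells and in 28.8% and 29.7% of other cells (91.7% and 97.9% against 60.1% and 64.4% without thinning). Free RNA was not removed from these counts, and its part in such shares was not tested. MCM5 was found in 33.7% and 38.4% of S-phase cells and in 1.80% and 2.64% of other cells. POLD4, the small accessory subunit of polymerase delta, was the member that fell, at 71.7 and 75.4 CPM against 94.5 and 106 (-0.53 ± 0.06, edgeR FDR 1.07e-04).

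**Figure D2:**
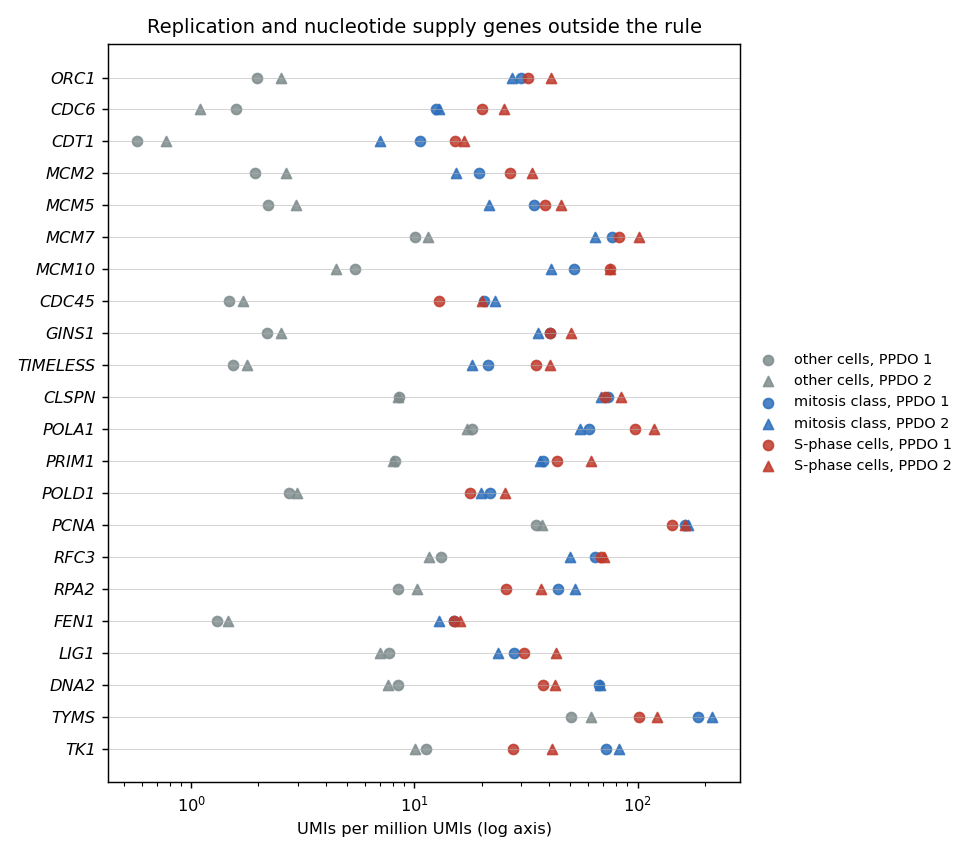
Level (CPM, log axis) of replication and nucleotide supply genes outside the score in other cells, mitotic-score cells (labelled mitosis class) and S-phase cells, with circles for PPDO 1 and triangles for PPDO 2. For every gene drawn both S-phase values lie above both values of other cells. TYMS, TK1, DNA2, RPA2, PCNA and CDC45 are higher in mitotic-score cells than in S-phase cells in both libraries.

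Nucleotide supply genes rose in 12 of 12 cases but by less, with a median log2 fold change of 1.18. TYMS, which makes thymidylate, was at 102 CPM in PPDO 1 and 122 in PPDO 2 in S-phase cells and at 50.2 and 61.9 in other cells (0.91 ± 0.06, edgeR FDR 1.64e-06). TK1, the thymidine salvage kinase, was at 27.8 and 41.6 CPM against 11.3 and 10.1 (1.59 ± 0.14, edgeR FDR 1.67e-05). SLC29A1, a nucleoside transporter, had the largest change of the list (2.21). In mitotic-score cells TYMS (187 and 215 CPM), TK1 (72.4 and 82.3 CPM) and DUT, which removes dUTP, were higher still, and S-phase cells lay below them by 0.80, 1.12 and 0.82 on the log2 scale (edgeR FDR 9.50e-06, 3.86e-04 and 4.18e-06).

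Chromatin copying genes rose in 15 of 17 cases (median log2 fold change 1.51). CHAF1B, a subunit of the CAF-1 chaperone that places histones behind the fork, was at 40.1 CPM in PPDO 1 and 39.8 in PPDO 2 in S-phase cells, at 0.918 and 1.34 in other cells and at 16.0 and 11.8 in mitotic-score cells. It was higher than in other cells (5.06 ± 0.19, edgeR FDR 4.11e-08) and also higher than in mitotic-score cells (1.56 ± 0.18, edgeR FDR 2.50e-04). DNMT1, the maintenance methyltransferase, was at 138 and 165 CPM against 29.0 and 34.4 in other cells (2.17 ± 0.08, edgeR FDR 3.21e-08). The remodeller HELLS was higher than in other cells by 2.20 and CDCA7, its partner, by 3.81. ASF1B was at 0.753 and 2.64 CPM in S-phase cells and at 0.0632 and 0.117 in other cells, but reached 10.5 and 15 CPM in mitotic-score cells. ASF1A (0.27, edgeR FDR 0.057) and LBR (0.01) did not pass.

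Repair and fork protection genes rose in 25 of 26 cases, with the highest median of the lists (2.97). BARD1 was at 50.6 CPM in PPDO 1 and 64.0 in PPDO 2 in S-phase cells and at 1.26 and 1.81 in other cells (5.14 ± 0.14, edgeR FDR 7.21e-09). BRCA1, with which it forms a ubiquitin ligase of homologous recombination, was at 33.1 and 45.7 CPM against 1.45 and 2.00 (4.43 ± 0.17, edgeR FDR 3.77e-08). MMS22L, which works with TONSL at broken forks, was at 99.4 and 107 CPM against 4.90 and 5.96 (4.16 ± 0.10, edgeR FDR 5.21e-09). EXO1, a nuclease of end resection and mismatch repair, was low in S-phase cells (6.19 and 12.6 CPM) and near 0 in other cells (0.201 and 0.195 CPM), a fitted log2 fold change of 5.45 ± 0.31. For all 4 genes every S-phase value lay above every value of other cells. RBBP8, which starts end resection, did not pass (-0.08, edgeR FDR 0.34), and RAD51AP1 did not pass the filter on low counts, with 1 UMI in S-phase cells of PPDO 1 and 0 in PPDO 2.

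The 12 genes with the largest increase over other cells, among those with at least 20 CPM, were ZGRF1, KNTC1, BARD1, CHAF1B, MTBP, DIAPH3, BRCA1, TIMELESS, MTFR2, GINS1, MMS22L and CDC6. ZGRF1, a DNA helicase of crosslink repair, was at 33.1 CPM in PPDO 1 and 48.0 in PPDO 2 in S-phase cells, at 0.918 and 1.06 in other cells and at 40.0 and 39.1 in mitotic-score cells (5.26 ± 0.14 over other cells, edgeR FDR 6.37e-09). KNTC1, a kinetochore protein of the spindle checkpoint, was at 91.2 and 111 CPM in S-phase cells, at 2.70 and 2.36 in other cells and at 70.5 and 65.8 in mitotic-score cells (5.23 ± 0.12, edgeR FDR 3.36e-09). MTBP, a partner of the origin firing factor TICRR, was higher by 4.56. Both DIAPH3, a formin, and MTFR2, a mitochondrial fission regulator, were higher than in other cells (4.49 and 4.22) but were lower than in mitotic-score cells, where DIAPH3 reached 323 and 435 CPM against 53.4 and 119 in S-phase cells (-2.17 ± 0.13, edgeR FDR 2.37e-06).

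The regulators of the entry into S phase were divided. Of 24 E2F and G1/S genes, 15 rose, 5 fell and 4 did not pass (median log2 fold change 0.93), and 2 were lower with DESeq2 and also without the library term. Over all genes tested 18% rose and 15.3% fell. E2F1, an activator, was at 16.7 CPM in PPDO 1 and 20.2 in PPDO 2 in S-phase cells, at 1.41 and 1.32 in other cells and at 9.93 and 6.05 in mitotic-score cells, and was the highest in S-phase cells against both (3.67 ± 0.20, edgeR FDR 4.80e-07, and 1.26 ± 0.20, edgeR FDR 0.00183). The repressors E2F7 (4.01) and E2F8 (3.86) were also above other cells, yet below mitotic-score cells by 1.09 and 2.34 on the log2 scale. E2F8 was at 7.53 and 13.7 CPM in S-phase cells and at 52.6 and 57.0 in mitotic-score cells. Cyclin E genes and the phosphatase CDC25A, which activate CDK2, were higher than in other cells, CCNE1 by 1.83, CCNE2 by 2.48 and CDC25A by 2.46. No D-type cyclin passed as higher than in other cells. CCND1 was at 249 and 220.4 CPM against 205 and 183, higher in both libraries without passing (0.18 ± 0.09, edgeR FDR 0.133). CCND2 did not pass (-0.17) and CCND3 was lower (-0.26). Against mitotic-score cells all 3 D-type cyclins were higher, CCND1 by 0.90, CCND2 by 0.76 and CCND3 by 0.44. The 5 genes that fell were CCND3, RBL2 and the inhibitors of cyclin-dependent kinases CDKN1A, CDKN1B and CDKN1C, of which CDKN1A and CDKN1C also passed with DESeq2 and without the library term. CDKN1A (p21) was at 129 CPM in PPDO 1 and 78.9 in PPDO 2 in S-phase cells, at 203 and 213 in other cells and at 319.6 and 295 in mitotic-score cells (-1.12 ± 0.14, edgeR FDR 1.55e-04, and -1.54 ± 0.14, edgeR FDR 4.01e-05). CDKN1C (p57) was at 3.35 and 1.65 CPM against 9.20 and 8.20 in other cells (-1.90 ± 0.21, edgeR FDR 6.82e-05). S-phase cells had the lowest values of the 3 classes for both inhibitors, without overlap between libraries.

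Targets of p53 were low in the same cells. Of 13 tested, 0 rose and 8 fell (median log2 fold change -0.44), and 11 of 13 were lower than in mitotic-score cells (median -0.89), or 5 of 13 without the library term. Over all genes tested 15.3% and 10.1% were lower in the 2 comparisons. MDM2, the ligase that p53 induces against itself, was at 194 CPM in PPDO 1 and 127 in PPDO 2 in S-phase cells, at 370.0 and 375 in other cells and at 566 and 514 in mitotic-score cells (-1.33 ± 0.11, edgeR FDR 1.19e-05). CCNG1, another target, did not pass against other cells (-0.12, edgeR FDR 0.14).

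Mitosis genes rose in 29 of 34 cases against other cells, with a median log2 fold change of 1.71. This depends on the class left out. With mitotic-score cells counted among the other cells, 13 genes were higher and 7 lower, with a median of 0.13, and BIRC5, CCNB2, CENPA, DLGAP5 and TTK were among those that turned from higher to lower. CDK1, the mitotic kinase, was at 14.4 CPM in PPDO 1 and 26.7 in PPDO 2 in S-phase cells, at 4.22 and 4.34 in other cells and at 109 and 166 in mitotic-score cells. All 34 genes were lower than in mitotic-score cells, which the choice of both classes fixes, and the largest decreases of at least 20 CPM, CCNB3, PIMREG, CDCA3, PLK1, CENPA, CCNF, TTK and KIF2C, are given for description. PLK1, a kinase of mitotic entry, was at 1.34 and 0.826 CPM in S-phase cells, at 1.05 and 0.888 in other cells and at 35.9 and 49.5 in mitotic-score cells. CCNB3, a cyclin of mitosis and meiosis, was at 0.335 and 0.165 CPM in S-phase cells and at 26.0 and 43.8 CPM in mitotic-score cells. In other cells CCNB3 was at 0.115 and 0.216 CPM, so that S-phase cells were near other cells and far from mitotic-score cells for both genes. Cohesin genes, whose rings are closed around sister chromatids in S phase, rose in 5 of 9 cases and fell in 2. Over all genes tested 18% rose and 15.3% fell. CDCA5 (sororin) was higher by 4.08 and SMC1A by 1.02, while STAG1 (-0.31) and NIPBL (-0.19) were lower.

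Against mitotic-score cells, a class that holds cells high in both scores, the replication genes were less clearly set apart. Of the same 52 genes, 23 were higher, 3 lower (DBF4, DNA2 and RPA2) and 26 did not pass, with a median log2 fold change of 0.23. The shares over all genes tested were 11.8% higher and 10.1% lower. The balance among the 52 genes depended on the limit of the score. With the highest 10% of cells 5 genes were higher and 12 lower (median 0.01), and with the highest 2.5% 34 were higher and 2 lower (median 0.54). Without the library term 3 were higher and 1 lower. PCNA was at 143 and 163 CPM in S-phase cells and at 164 and 168 in mitotic-score cells (-0.08 ± 0.06, edgeR FDR 0.407), and CLSPN did not pass either (0.17, edgeR FDR 0.193). MCM10 (0.75), POLA1 (0.93) and WDHD1 (0.98), an anchor of polymerase alpha at the fork, were higher in S-phase cells. The 8 genes with the largest increase over mitotic-score cells, among those with at least 20 CPM, were CDCA7, CHAF1B, DLK2, RHCG, UNG, KRT15, MISP and RERG. CDCA7 was at 26.1 CPM in PPDO 1 and 26.6 in PPDO 2 in S-phase cells and at 9.87 and 4.45 in mitotic-score cells (1.95 ± 0.23, edgeR FDR 3.06e-04). UNG, the glycosylase that removes uracil from copied DNA, was at 58.2 and 61.6 CPM against 28.4 and 17.3 (1.45 ± 0.15, edgeR FDR 1.09e-04). KRT15, a keratin of basal epithelial cells, was at 1170 and 2270 CPM against 531 and 804 (1.37 ± 0.11, edgeR FDR 2.04e-05). KRT15 in other cells, at 1172 and 1441 CPM, overlapped with S-phase cells (0.24 ± 0.11, edgeR FDR 0.123).

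Outside the cell cycle, barrier differentiation genes, which squamous epithelia switch on as they leave the basal layer, gave the largest decreases. Of 19 tested, 17 fell and 0 rose, with a median log2 fold change of -3.07. The summed level of the list was 252 CPM in PPDO 1 and 564 in PPDO 2 in S-phase cells, 2075 and 4623 in other cells and 287 and 597 in mitotic-score cells. IVL (involucrin), a scaffold of the cornified envelope, was at 2.18 and 6.69 CPM against 46.2 and 113 in other cells (-4.27 ± 0.11, edgeR FDR 5.62e-09). KRTDAP, a secreted protein of differentiating keratinocytes, was at 16.0 and 61.5 CPM against 389 and 962 (-4.26 ± 0.23, edgeR FDR 4.53e-07). S100A12, a calcium-binding protein, was at 38.7 and 192 CPM against 879.8 and 1930 (-3.95 ± 0.21, edgeR FDR 3.70e-07). For each of these genes PPDO 2 was the higher library in both classes, and S-phase cells lay below other cells in each library and without overlap. By the same rule as above the 12 largest decreases were SPRP, IVL, KRTDAP, CNFN, S100A8, S100A12, DMKN, SLPI, TPRG1, NTM, NMB and KLK7. KLK7, a protease of the outer epidermis, was at 12.3 and 7.36 CPM against 26.8 and 130.1, so that the decrease was far larger in PPDO 2 (-2.77 ± 0.50, edgeR FDR 0.00186). SPINK5, an inhibitor of such proteases, was at 0.335 and 0.0826 CPM against 16.4 and 17.5. KLK5 (-0.38) and KRT4 (0.68) did not pass. Against mitotic-score cells 1 of the 19 genes was higher and 2 were lower, against 11.8% higher and 10.1% lower over all genes tested. The median was 0.00 after rounding, but -0.84 with the highest 2.5% by score and 0.43 with the highest 10%.

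Basal genes, by contrast, stayed near their level in other cells. Of 12 tested, 8 were lower, 0 higher and 4 did not pass, but the median log2 fold change was -0.19. KRT5, the basal keratin, was at 5282 CPM in PPDO 1 and 8053 in PPDO 2 in S-phase cells and at 5552 and 7787 in other cells (-0.10 ± 0.03, edgeR FDR 0.0259). TP63, the transcription factor of basal cells, was at 536 and 596 CPM against 563 and 590.0 (-0.12 ± 0.05, edgeR FDR 0.123), and at 10000 UMIs it was found in 93.5% and 97.2% of S-phase cells. ITGA6, an integrin of the attachment to the basement membrane, was lower at 503 and 684 CPM against 759 and 885 (-0.57 ± 0.05, edgeR FDR 2.17e-05). Duct genes were lower in 3 of 11 cases, ANXA4 (-0.24) and PDX1 (-0.47) among them, and higher in 0, against 15.3% lower over all genes tested. Without the library term 0 of the 11 were lower. KRT7, a duct keratin, was at 435 and 369.7 CPM against 390.1 and 399.5 (-0.08, edgeR FDR 0.68). CFTR, the duct chloride channel, was at 1.26 and 1.07 CPM in S-phase cells and at 1.00 and 0.654 in other cells, so this marker of the labelled tissue was near 0 in both classes.

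WNT receptors and targets rose in 7 of 12 cases, fell in 2 and did not pass in 3, with a median log2 fold change of 0.51. Over all genes tested 18% were higher and 15.3% lower, so the 2 lower genes lie near that share. LGR6, an R-spondin receptor, was at 134 CPM in PPDO 1 and 143 in PPDO 2 in S-phase cells, at 67.9 and 82.6 in other cells and at 76.8 and 77.3 in mitotic-score cells. It was higher than in both (0.79 ± 0.07, edgeR FDR 1.95e-05, and 0.88 ± 0.07, edgeR FDR 2.76e-05), and at 10000 UMIs it was found in 54.3% and 55.9% of S-phase cells and in 28.1% and 36.5% of other cells. LGR5, its homologue, was at 50.6 and 24.6 CPM against 23.9 and 11 (1.02 ± 0.11, edgeR FDR 5.46e-05), higher within each library, although the values of PPDO 1 other cells and PPDO 2 S-phase cells were close. AXIN2, a feedback inhibitor that WNT induces, was higher by 0.46 and LEF1, a nuclear effector, by 0.66. LEF1 was uneven, at 62.2 against 31.0 CPM in PPDO 1 and 32.8 against 24.3 in PPDO 2. LGR4 (-0.24) and RNF43 (-0.38) fell. In cells of 30000 to 50000 UMIs, 4 of 11 WNT genes were higher (median 0.30), and without the library term 1 of 12 was. The list's summed level was 630.2 and 531 CPM in S-phase cells and 448 and 407 in other cells.

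Glycolysis and hypoxia genes fell in 15 of 18 cases and rose in 0, with a median log2 fold change of -0.57. Over all genes tested 15.3% were lower. Without the library term 10 of the 18 genes were lower. In cells of 30000 to 50000 UMIs 12 were lower, with a median of -0.41. GAPDH was at 4541 CPM in PPDO 1 and 5185 in PPDO 2 in S-phase cells and at 8915 and 10137 in other cells (-1.06 ± 0.03, edgeR FDR 5.26e-09). The larger decreases were of genes that low oxygen induces. ADM (adrenomedullin) was at 26.3 and 41.3 CPM against 170.1 and 175 (-2.47 ± 0.13, edgeR FDR 3.82e-07), NDRG1 was lower by 1.93 and BNIP3, a mitophagy receptor, by 1.89. The enzymes PGK1 (-0.19) and PKM (-0.29) fell little, and PFKP, PGAM1 and CA9 did not pass. Mitotic-score cells were low as well, with a summed level of 9843 and 10502 CPM, against 8618 and 9407 in S-phase cells and 15455 and 16670 in other cells.

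MYC and ribosome making genes rose in 11 of 14 cases (median log2 fold change 0.62). For this and the next lists, the shares over all genes tested were 18% higher and 15.3% lower. The nucleolar proteins NOLC1, at 131 and 121 CPM against 49.2 and 44.3 in other cells (1.34 ± 0.07, edgeR FDR 4.75e-07), and NOP56 (1.27) led the list, and MYC itself was at 64.9 and 66.3 CPM against 42.7 and 45.5 (0.48 ± 0.07, edgeR FDR 4.23e-04). The summed level of this list was 2409 and 2409 CPM in S-phase cells and 1760 and 1789 in other cells. Mitotic-score cells lay between, at 2164 and 1991 CPM. Oxidative phosphorylation genes rose in 11 of 17 cases by small amounts (median 0.21), and in 1 of 17 without the library term. Their sum was 3835 and 3508 CPM in S-phase cells and 3007 and 2981 in other cells. Mitotic-score cells were higher still, at 4203 and 3883 CPM. Of the EGF and FGF genes, 8 of 17 fell and FGFR1 rose, at 5.69 and 7.36 CPM against 3.05 and 3.47. Without the library term 2 of the 17 were lower and 0 higher. The EGF receptor ligand EREG was at 344 and 329 CPM against 410.4 and 362 (-0.28 ± 0.06, edgeR FDR 0.00451). Immediate early genes fell in 6 of 11 cases (median -0.25) and in 0 of 11 without the library term, and 3 of the 4 tested genes of the GPNMB and MMP3 list fell, TIMP3 the most (-2.10).

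**Figure D3:**
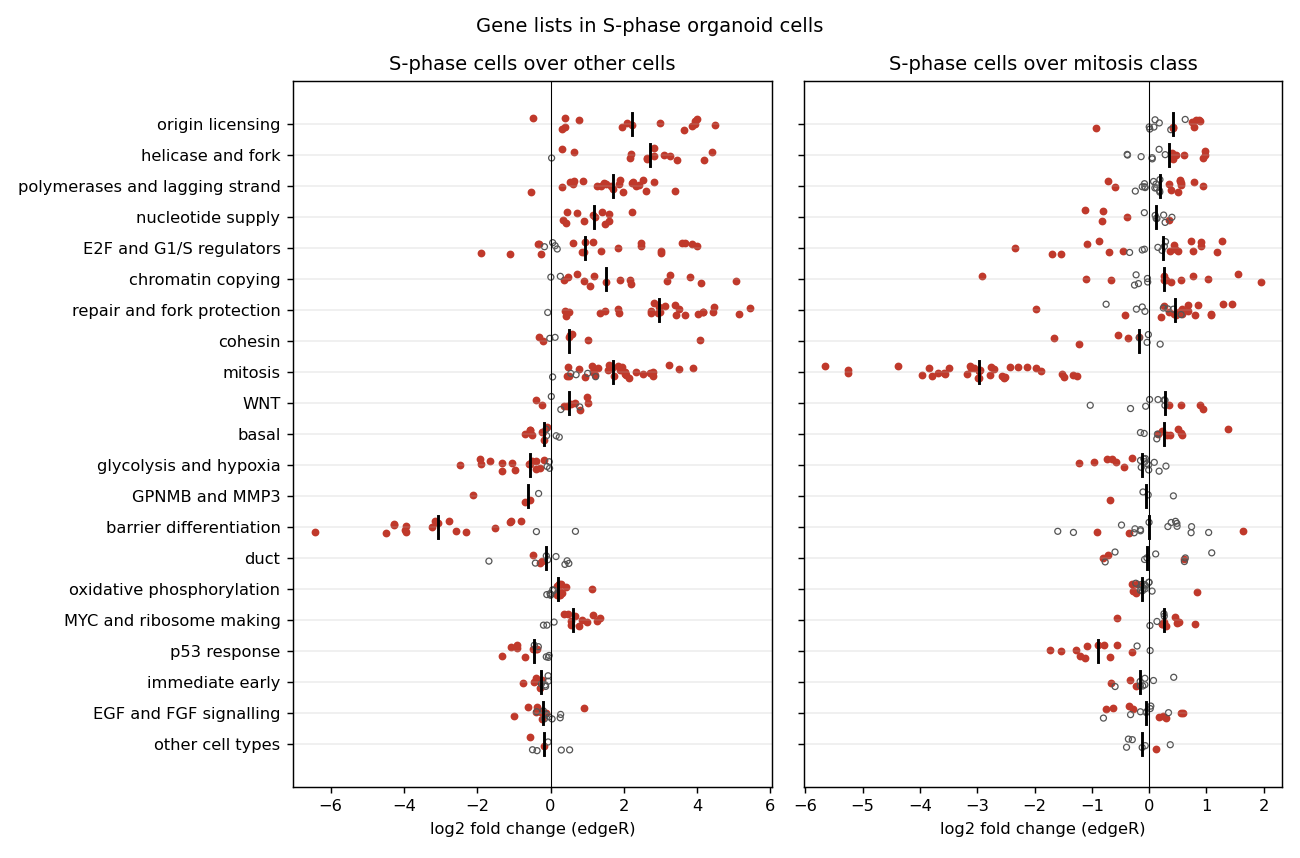
Log2 fold change (edgeR) of each tested gene by list, S-phase over other cells on the left and over mitotic-score cells (labelled mitosis class) on the right, with filled points at an FDR under 0.05, open points otherwise and a bar at the median of each list. Against other cells repair genes lie highest (median 2.97) and barrier differentiation genes lowest (-3.07), while the mitosis list changes side between the comparisons (1.71 and -2.97).

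Markers of other cell types were read in the same sums. Of 20 listed, 7 passed the filter on low counts, and PECAM1 and CD74 were lower in S-phase cells and none higher. Over all genes tested 15.3% were lower and 18% higher. The summed level was 4502 and 4372 CPM in S-phase cells and 4895 and 4596 in other cells. CD74, which the organoid cells carry in all classes, made up 4475 and 4347 CPM of the former sums. CDH19 of glia and GCG of alpha cells were at 0 in S-phase cells.

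The summed replication and barrier genes changed by degrees along the score, while the WNT sum of PPDO 2 went from 534.9 CPM just below the limit to 486.1 just above it and the basal list had no order. Over 6 ranges of the score among cells outside the mitotic-score class, the summed level of the 52 replication genes was 1119 CPM in the lower 50% of PPDO 1 and 1121 in that of PPDO 2, and 1629 and 1845 CPM between 90% and 95%, just below the limit. It was 2228 and 2601 CPM in the 2.5% of cells just above the limit and 3191 and 3548 CPM in the highest 2.5%. Barrier genes fell from 2774 to 215.2 CPM and from 6428 to 359.3 CPM over the same ranges, and most of the decrease lay below the limit, with 394.2 and 831.4 CPM between 90% and 95%. The replication sum rose at each range in both libraries, and the barrier sum fell at each. Median depth was 29499 and 30977 UMIs in the lowest range and 45202.5 and 44104 in the highest, without a steady rise between them.

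**Figure D4:**
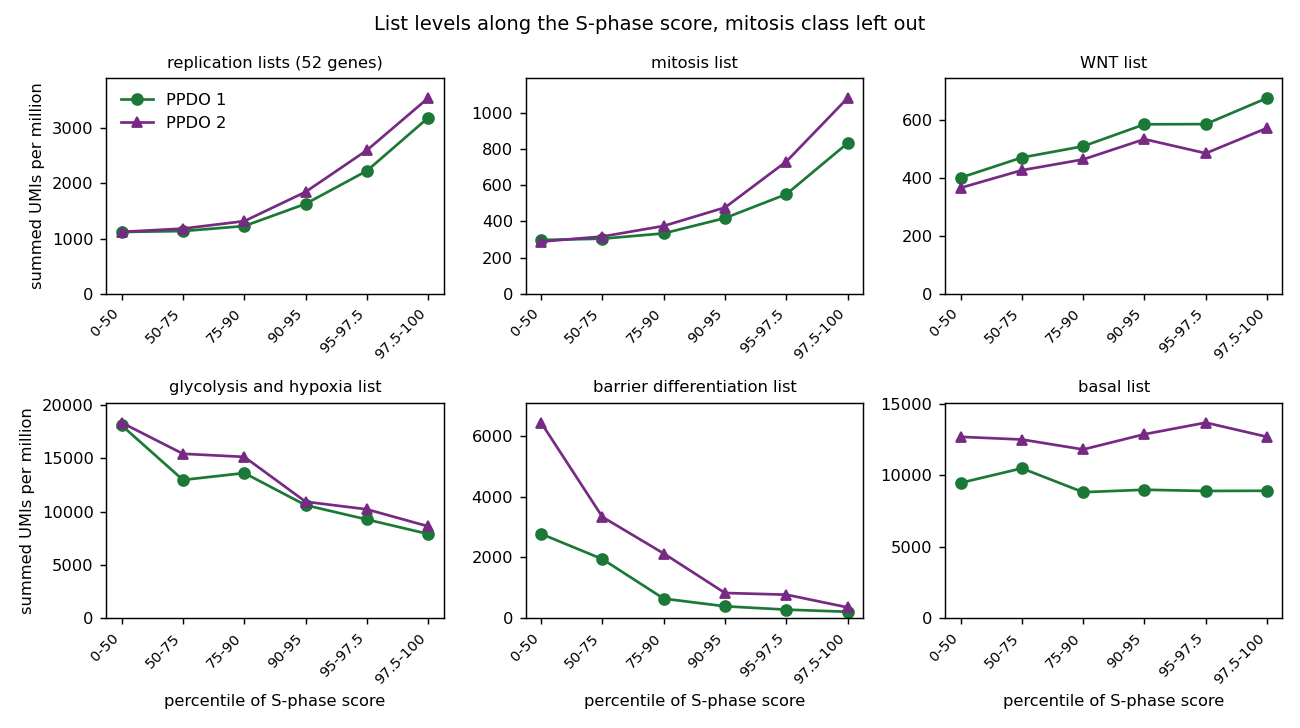
Summed level (CPM) of 6 gene lists over 6 percentile ranges of the replication score in PPDO 1 (circles) and PPDO 2 (triangles), with mitotic-score cells left out. Replication genes rise from 1119 and 1121 CPM to 3191 and 3548 CPM, barrier genes fall to 215.2 and 359.3 CPM, and the basal list has no such order.

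S-phase cells were split in each library into 3 groups of about equal size by their mitosis score, a score that the rule used. The groups held 101, 101 and 100 cells in PPDO 1 and 95, 94 and 94 in PPDO 2. Median depth rose over them, at 40606, 43821 and 45250.5 UMIs in PPDO 1 and 39788, 44174.5 and 44397.5 in PPDO 2. The 8 genes of the mitosis score are not read here. The median replication score rose as well, from 0.435 to 0.591 and from 0.566 to 0.678 between the lowest and the highest group. CDK1 was at 9.10, 6.90 and 27.4 CPM in PPDO 1 and at 10.4, 17.1 and 50.9 in PPDO 2, from the lowest to the highest group. PCNA was at 109.8, 128 and 189.6 CPM in PPDO 1 and at 111, 149 and 222 in PPDO 2. E2F8 was at 3.86, 3.91 and 14.8 CPM and at 1.6, 3.61 and 34.7. All 3 genes were highest in the group with the highest mitosis score, in both libraries. CCNE1 showed no such order, at 12.7, 11.1 and 11.6 CPM in PPDO 1 and at 9.31, 8.66 and 8.60 in PPDO 2. CDC25A changed little, from 21.2 to 25.1 and from 27.4 to 30.1 CPM. CDK1 and E2F8 were also higher in mitotic-score cells than in S-phase cells, so a split by mitosis score tends to set their order. The order of these genes is therefore a description. These groups are ranges of a score within 1 library each, so no test was made.

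**Figure D5:**
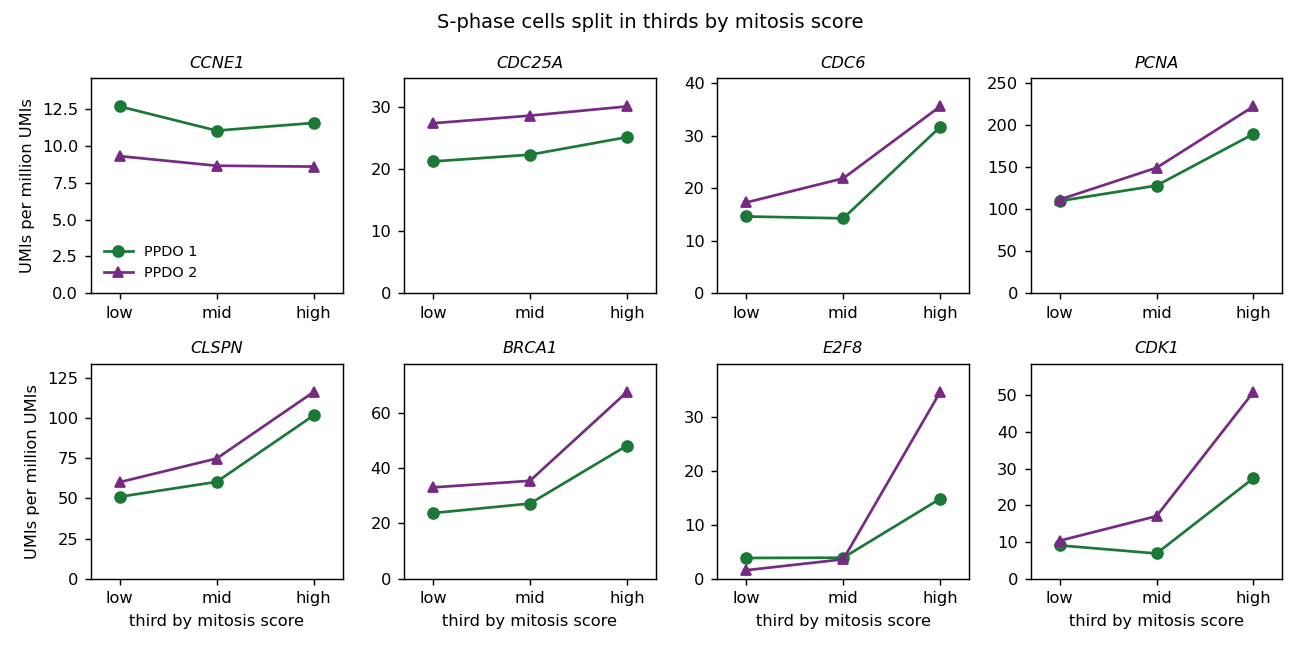
Level (CPM) of 8 genes in S-phase cells split by mitosis score into 3 groups of about equal size, in PPDO 1 (circles) and PPDO 2 (triangles). CDK1, E2F8 and PCNA are highest in the group with the highest mitosis score, while CCNE1 stays between 8.60 and 12.7 CPM.

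Primary pancreas was read with the same 7 genes at a common depth, since a share of the highest 5% is fixed by definition. Every kept cell with at least 3000 UMIs was thinned to 3000 and counted when at least 3 of the 7 genes had a UMI. Too shallow for this were 61 and 10 cells of PPDO 1 and PPDO 2 and 589 and 0 of primary pancreas 1 and 2. The share was 1.18% of 8824 cells in PPDO 1 (95% Clopper-Pearson interval 0.964 to 1.43) and 1.34% of 7327 in PPDO 2 (1.09 to 1.63). In primary pancreas it was 0.335% of 5082 cells (0.195 to 0.535) and 0.211% of 4261 cells (0.0966 to 0.401). The mean was 1.26% ± 0.112 (SD, n = 2) in PPDO and 0.273% ± 0.0872 (SD, n = 2) in primary pancreas, and both organoid libraries lay above both primary libraries. The 52 replication genes outside the score did not give this order, at 1317 and 1388 CPM over all kept cells of PPDO 1 and PPDO 2 and at 1697 and 923 CPM in primary pancreas 1 and 2. The 7 genes are those of the rule and were picked for organoid cells, so these shares are a description, and an exact permutation test of 2 against 2 libraries cannot go below 0.333. Intervals cover counting error only. At this depth 52 of 299 S-phase cells of PPDO 1 and 75 of 283 of PPDO 2 were counted, so the shares do not give the number of cells in S phase. Without thinning the means were 10.2% and 0.975%. The 17 and 9 primary cells that were counted carried the replication lists at 5714 and 6226 CPM, against 1676 and 911 CPM in the primary cells not counted. INS, the insulin gene, was at 29527 and 129975 CPM in them and at 8469 and 384833 CPM in the primary cells not counted, and CFTR was at 424.7 and 665 CPM against 556.5 and 172. They held 1 and 0 UMIs of KRT5. The 17 cells of primary pancreas 1 also held 221 UMIs of PTPRC and 57 of CD3E, markers of leukocytes and T cells. Gates differed between the primary libraries, which can set these shares.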

How the data were processed

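Single-cell libraries of 2 PPDO and 2 primary pancreas samples were analysed, grouped by sample title. As deposited, the matrices hold uncorrected UMI counts for each feature in each barcode, which the authors obtained from 10x Chromium 3' v3.1 libraries with Cell Ranger 7.1.0 and an in-house pig annotation. The submitters' processing notes list the builds GRCh38 and Sscrofa11.1. Other deposited tables hold barcodes and feature names. The SoupX correction of the study came after this step and is not in these counts.

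The 56060 features were summed to 30282 gene identifiers. List genes without a unique match included POLE2, RRM2, DCK, CCNA2, ESCO2, AURKA, KNL1, PTTG1, CTSK, S100A9, COX6C, BOP1, BTG2, BAX, JUN and PRSS1, and 8 transgene features were kept out. Organoid cells had 1000 to 9000 features and at most 3% mitochondrial UMIs. Primary cells had under 8% mitochondrial UMIs, under 9000 features and over 400 features, or over 800 features and 3000 UMIs in the second library. Scrublet (Scanpy 1.11.5, Python 3.11.15) removed 89 and 154 primary barcodes as doublets. Organoid doublets were kept and removed as an alternative.

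Counts were summed per class and library, since cells are not replicates, and fitted with edgeR 4.0.16 in R 4.3.3 (TMM, filterByExpr, glmQLFit, glmQLFTest) with terms for library and class. The classes of a library come from the same culture, so the library pairs them by design and is the replicate block. The 6 sums left 2 residual degrees of freedom, and the biological coefficient of variation was 0.0637. P-values were adjusted by Benjamini-Hochberg over genes outside the 15 score genes, with calls at 0.05. The SE is the absolute log2 fold change divided by the root of F. Shares of cells were read after thinning to 10000 UMIs, or 3000 UMIs against primary pancreas. Named genes were the 12 (against other cells) or 8 (against mitotic-score cells) with the largest change in each direction, with a unique symbol, at least 20 CPM where higher and the same direction in both libraries, plus list members. The members and all gene lists were chosen with earlier results of these data known. Alternatives were another tool, filters, limits of the score, depth and doublets. A search of promoter motifs was not run because sequences were not used here.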

Additional observations from a re-analysis of the deposited data

How the results depend on the processing

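Without the replicate block (the library term), 1593 genes differed from other cells against 5496, of which 65.9% were higher against 54.0%, and 362 differed from mitotic-score cells against 3609, of which 33.4% were higher against 53.8%. The counts stayed within 1.5 times of the reported ones under DESeq2 1.42.0 (4337 and 2740), without a filter on low counts (6031 and 4309, where the median of all genes against other cells moved to -0.12), in cells of 30000 to 50000 UMIs (4307 and 3422) and under the other limits tried. For either count no test could be fitted without 1 library, since no residual degrees of freedom remained. The median log2 fold change of the 52 replication genes was 2.00 to 2.19 with 1 library left out, 2.33 with the highest 2.5% by score, 1.71 with the highest 10% and 1.84 with mitotic-score cells counted among other cells. In that last setting AURKB (-0.25), BIRC5 (-0.67), CCNB2 (-0.66), CDCA8 (-0.24), CENPA (-1.78), DLGAP5 (-0.71), KIF23 (-0.14), KIF2C (-0.39) and TTK (-0.89) changed sign, of which BIRC5, CCNB2, CENPA, DLGAP5 and TTK passed as lower, since mitotic-score cells then lay on the other side. With the highest 10% by score, ATAD5 (-0.17), BARD1 (-0.039), BLM (-0.020), BRIP1 (-0.068), KNTC1 (-0.11), RFC3 (-0.10), SLBP (-0.0063) and XRCC2 (-0.089) fell to just below 0 against mitotic-score cells and none of the 8 passed. The cause was not tested. Without the replicate block 7 of 19 barrier genes passed as lower against 17, 1 of 12 basal genes against 8, 4 of 13 p53 targets against 8, 2 of 17 EGF and FGF genes against 8, 0 of 11 immediate early genes against 6, 0 of 11 duct genes against 3 and 1 of 17 oxidative phosphorylation genes as higher against 11. For glycolysis and hypoxia, 10 of 18 genes passed as lower without that block against 15. Against mitotic-score cells the barrier median was -0.84 with the highest 2.5% by score and 0.43 with the highest 10%. Of 275 named or listed genes that differed from other cells, 96 lost their call without the replicate block and 15 under DESeq2. Of 194 that differed from mitotic-score cells, 126 and 11 did. Of the cells that scores from thinned cells chose, 78.4% and 82.7% were members. The share of cells with at least 3 of the 7 score genes was 0.985 percentage points higher in PPDO than in primary pancreas, and this difference was 2.40 with at least 2 genes, 0.201 with at least 4, 9.21 without thinning, 0.972 with doublets kept and 0.906 to 1.06 with 1 library left out. With 2 libraries the depth of low genes and the spread between lines limit what could be seen.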
